A study of Drosophila melanogaster with 14 samples.

Results

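The comparison described here sets nuclei of the mesoderm against nuclei of neurons in Drosophila melanogaster embryos of stages 10-13, across all genes measured. Its members are 4 of the 14 libraries of the series, chosen by their labels: 2 mesoderm libraries of the genotype twi-INTACT and 2 neuronal libraries of the genotype elav>INTACT. INTACT is a method in which a tag placed on the nuclei of 1 cell type lets these nuclei be pulled from a whole-embryo lysate, and total RNA of the captured nuclei was then sequenced. In twi-INTACT embryos the tag follows twi, the gene of the bHLH factor that starts the mesoderm, and in elav>INTACT embryos it is driven through elav, a gene of neurons. All 4 libraries are wild-type for Ubx, the Hox gene the study is about, and come from tagged embryos, so no untagged library was compared. Each tissue also has 2 libraries of stages 14-17, and 6 further libraries of mesodermal nuclei with degraded or control Ubx are not used here. The labels do not say whether the 2 libraries of a tissue came from separate embryo collections, so every p-value reflects only how far these libraries differed, which may be technical variation.

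Stages 10-13 of fly development run from the extended germ band to the start of dorsal closure. Over this time the mesoderm splits into visceral, cardiac, fat body and somatic muscle lineages under factors such as Twist, Tinman, Bagpipe and Mef2, while neuroblasts divide and their daughters become neurons and glia. Notch, Hedgehog, Dpp, Wingless, EGF and FGF signals set these fates, and cell-surface proteins of the immunoglobulin and leucine-rich repeat families later guide axons and match synaptic partners. Nuclear RNA holds unspliced transcripts, so a level measured in nuclei need not equal the cytoplasmic level.

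Assigned counts were 16578996 and 17905141 in the mesoderm libraries and 27924215 and 36150646 in the neuronal libraries, over 14156 listed genes. Levels are given as CPM, read counts scaled to a common library size after TMM normalisation, with the mesoderm or neuronal replicate 1 first. Replicates correlated at r = 0.9844 in mesoderm and 0.9863 in neuronal nuclei across genes on the log scale, against 0.768 to 0.805 between tissues. Protein-coding genes that lie wholly inside another gene were mostly listed at 0: 519 of 541 (95.9%) on the same strand as the host and 1020 of 1101 (92.6%) on the opposite strand, against 597 of 12027 other genes (5.0%). The fully overlapped mira, ase and moody, and elav with 98.6% of its span overlapped, therefore cannot check the labels. Genes with 40% or more of their span overlapped by other genes are called uncertain where named. In bulk nuclei, fewer cells of a type and less RNA per cell cannot be told apart.

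The labelled tissues were checked against marker genes. In the mesoderm list, 7 of 10 genes were higher in the mesoderm libraries and 2 were higher in the neuronal libraries. The regulator lmd and the adhesion gene sns followed the label, with 609 and 534 CPM of lmd in mesoderm against 24.4 and 25.3 CPM in neuronal nuclei. The muscle structural genes Mhc and Act57B did not: Mhc had 926 and 628 CPM in mesoderm and 2784 and 2276 CPM in neuronal nuclei, and 11837 and 11273 CPM in mesoderm at stages 14-17. Of 9 tested neuronal markers, 8 were higher in the neuronal libraries and fne was not called, and their summed level was 242 and 269 CPM in mesoderm against 1001 and 699.7 CPM in neuronal nuclei. All 5 tested neuroblast markers were higher in the mesoderm libraries (sums of 761 and 762 CPM against 352 and 262 CPM). Of 10 markers of epidermis and cuticle, 8 were higher in the neuronal libraries (sums of 1551 and 1715 CPM against 5086 and 4539.5 CPM). Of 8 glia, 7 hemocyte and 5 midgut markers, 4, 2 and 3 were higher in the neuronal libraries and 2, 4 and 1 in mesoderm. The midgut markers summed to 157 and 193 CPM in mesoderm and 106 and 135 CPM in neuronal nuclei. Of these sums GATAe alone made 154 and 190 CPM in mesoderm and 34.6 and 28.4 CPM in neuronal nuclei. Jon65Ai, Mur18B and alphaTry, the 3 higher in neuronal nuclei, had at most 1.06 CPM in mesoderm and at least 12.1 CPM in neuronal nuclei. Alp4 was not called. The hemocyte markers summed to 2456 and 2490.4 CPM against 1171 and 1072 CPM.

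Genes of late embryonic differentiation were at high levels in the libraries labelled neuronal 10-13, and these values stand beside every count of genes higher in them. The 76 tested cuticle proteins with an RR chitin-binding domain summed to 252 and 115 CPM in mesoderm and to 9191 and 10816 CPM in neuronal nuclei of stages 10-13. At stages 14-17, when the larval cuticle is made, the same genes summed to 1148 and 899 CPM in mesoderm and to 753 and 883 CPM in neuronal nuclei. The Tweedle cuticle proteins showed the same order, with 5329.6 and 5766 CPM in the neuronal libraries of stages 10-13 and at most 1251 CPM in any other wild-type library. Reads of the mitochondrial genome made up 1.14 and 0.87% of mesoderm counts and 1.78 and 4.56% of neuronal counts. The sources used here do not give the age of embryos within the stage window, so tissue and embryo age within it cannot be told apart. Whether the stage labels of these libraries hold was not tested, and neither was the part of other cell types in these differences.

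Of 10549 genes tested, 2451 (23.2%) were higher in mesoderm and 3115 (29.5%) were higher in neuronal nuclei, so that 5566 (52.8%) passed the threshold in 1 direction or the other (edgeR's quasi-likelihood test, Benjamini-Hochberg adjusted p under 0.05). The difference is given as log2 of mesoderm over neuronal level, positive where mesoderm is higher, from 2 libraries per tissue. Its median over all tested genes was -0.08. The value after ± is an approximate standard error (SE), the difference divided by the square root of its quasi-likelihood F statistic. This SE was not estimated directly and may understate the counting error of genes near 0. Large differences lay mostly on the neuronal side: 426 genes (4.04%) were at least 4-fold higher in mesoderm and 1800 (17.1%) at least 4-fold higher in neuronal nuclei. At 32-fold or more the numbers were 36 and 476. Scaling by library totals alone moved the median to -0.33 and the split to 1664 and 3707 genes, so that 31.0% of called genes were higher in mesoderm in place of 44.0%. Leaving out neuronal replicate 2 left 1562 and 2232 genes.

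The direction went with the level of the gene. Among 2697 genes at 100 to 1000 CPM in their higher tissue, 48.0% were higher in mesoderm and 23.3% in neuronal nuclei. Among 2129 genes at 1 to 10 CPM the shares were 9.11% and 34.4%. In both mesoderm libraries 71 genes called higher in neuronal nuclei were listed at 0, 16 of them with 10 CPM or more in neuronal nuclei. The reverse held for 5 genes, 1 of which reached 10 CPM.

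**Figure D1:**
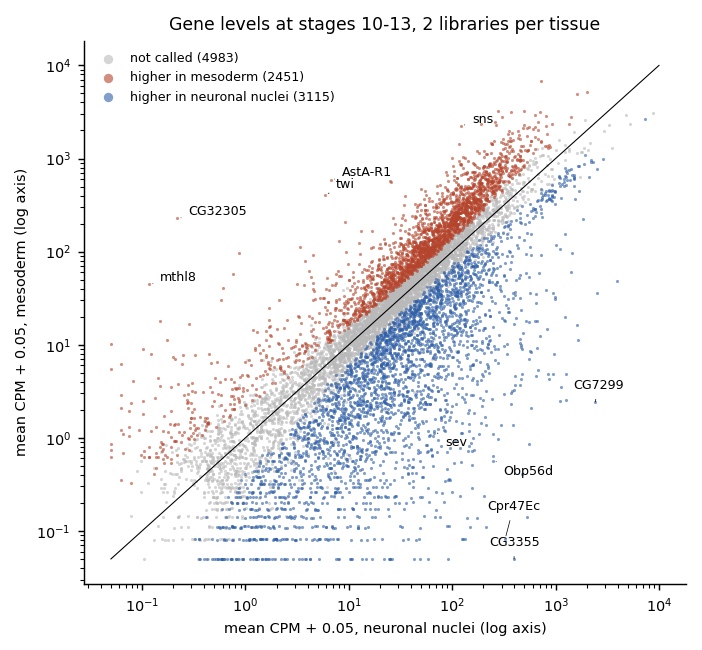
Mean level of each of the 10549 tested genes in the 2 neuronal libraries (horizontal, CPM + 0.05, log axis) and the 2 mesoderm libraries (vertical, same scale) of stages 10-13, with the line of equal level. Genes higher in neuronal nuclei spread far below the line, down to genes at 0 in mesoderm, while genes higher in mesoderm crowd at high levels close to it.

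The largest differences toward mesoderm were found in genes with no name or in receptors. CG32305 had 254 and 201 CPM in the mesoderm libraries and 0.219 and 0.120 CPM in the neuronal libraries. The groups lay far apart, with a difference of 10.39 ± 0.36 (edgeR adjusted p = 5.55e-05), and it was also higher in mesoderm at stages 14-17, at 25.6 and 31.7 CPM. The gene next to it on the same strand, CG32301, had 66.7 and 48.5 CPM against 0.813 and 0.602 CPM, a difference of 6.35 ± 0.45. They lie at 3L:2244478-2248614 and 3L:2248635-2252729 of BDGP6. CG45691 was at 12.4 and 7.800 CPM in mesoderm and was listed at 0 in both neuronal libraries, which makes it at least 122-fold higher in mesoderm against a floor of 3 counts per library. CG15109, CG10764, CG14689 and CG13793 completed the unnamed genes among the 10 largest differences, with values of 7.48, 6.87, 6.37 and 6.16. Of these, CG10764 kept its difference at stages 14-17 (7.13), whereas that of CG13793 was 1.25 there (edgeR adjusted p = 0.0724), and the change between stages passed for CG13793 (interaction, edgeR adjusted p = 0.00191) and CG15109 (0.0055).

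The other 3 of these 10 genes code for receptors. AstA-R1, a receptor of the neuropeptide Allatostatin A, had 714 and 468 CPM in mesoderm and 6.94 and 6.402 CPM in neuronal nuclei, and no library of either tissue came near the other tissue. Its difference was 6.47 ± 0.30 (edgeR adjusted p = 8.03e-05), and at stages 14-17 mesoderm still had 59.2 and 68.4 CPM against 2.66 and 2.21 CPM. mthl8, a member of the Methuselah-like G protein-coupled receptors, had 45.6 and 43.5 CPM against 0.0626 and 0.0722 CPM. Gr8a, of the gustatory receptor family, had 18.3 and 15.3 CPM against 0.250 and 0.217 CPM. Both were without overlap between tissues, with differences of 9.25 ± 0.47 and 6.15 ± 0.54.

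Per length of exon, and among called genes that met the conditions for naming, the largest mesoderm excess was in Tom, Obp99a, hth, kek5 and Brd. hth codes for Homothorax, a homeodomain cofactor of the Hox proteins, and had 6267 and 7198 CPM in mesoderm against 688 and 751 CPM in neuronal nuclei. Both mesoderm libraries were far above both neuronal libraries, a difference of 3.23 ± 0.32 (edgeR adjusted p = 0.000325), and at stages 14-17 it was 2.97. kek5, a transmembrane protein with leucine-rich repeats, had 3074 and 3338 CPM against 254 and 299 CPM. Tom and Brd, small Bearded-type proteins that act on Notch signalling, had 1391 and 1533 and 273 and 272 CPM in mesoderm and 203 and 268 and 30.5 and 60.7 CPM in neuronal nuclei. For Obp99a the call was lost without any single library (edgeR adjusted p of 0.0516 to 0.121 there).

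Toward neuronal nuclei, under the conditions for naming, the largest differences belonged mostly to genes with no counts in mesoderm. CG3355 was listed at 0 in both mesoderm libraries and had 243 and 550.4 CPM in the neuronal libraries, which is at least 2190-fold higher. CG8543, CG32248, CG13443 and CG11300 were listed at 0 in mesoderm too, and were at least 500-, 325-, 269- and 236-fold higher in neuronal nuclei. Cpr47Ec, a cuticle protein, had 0.0623 and 0 CPM in mesoderm and 155 and 493 CPM in neuronal nuclei. CG6839, CG17752 and CG32198, all at 0 in mesoderm, were at least 143-, 139- and 138-fold higher, although limma-voom did not call CG6839 (adjusted p = 0.0622) or CG17752 (adjusted p = 0.126). CG11350 stood at 0.125 and 0.0582 CPM against 709.9 and 343 CPM.

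By level per exon length, among called genes that met the same conditions, the neuronal excess was led by CG7299, mt:CoII, Lcp65Af, Cpr47Eg and CG30457. CG7299 had 1.81 and 2.97 CPM in mesoderm and 1856 and 2979.8 CPM in neuronal nuclei, a difference of -9.98 ± 0.78 (edgeR adjusted p = 0.00016). At stages 14-17 the same gene had 5.16 and 9.53 CPM in mesoderm and 48.8 and 141 CPM in neuronal nuclei, below both early neuronal libraries. The cuticle genes Lcp65Af and Cpr47Eg had 948 and 1268 and 889 and 811 CPM in neuronal nuclei and at most 8.29 CPM in mesoderm. mt:CoII, a mitochondrial subunit of cytochrome oxidase, had 1096 and 892 CPM against 1490.1 and 4227 CPM, with neuronal replicate 2 far above the other 3 libraries, and its call was lost in 6 of 12 alternatives (edgeR or limma adjusted p of 0.0539 to 0.414).

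Transcription factors lay mostly on the mesoderm side. Of 302 tested, 170 (56.3%) were higher in mesoderm and 34 (11.3%) in neuronal nuclei, against 23.2 and 29.5% of all genes, with a median difference of 1.08 against -0.08. Their summed level was 63613 and 65843 CPM in mesoderm and 23269 and 20048 CPM in neuronal nuclei. Both mesoderm sums were above both neuronal sums. At stages 14-17, in libraries that belong to neither group compared but share the fit, 96 of the 170 were again higher in mesoderm and 9 were higher in neuronal nuclei. The 34 fell to between 17 and 20 when any 1 of the 4 libraries was left out.

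Among 86 homeobox factors 44 were higher in mesoderm and 2, repo and pdm3, in neuronal nuclei. Ubx, the Hox gene of the posterior thorax and first abdominal segment, had 876 and 837 CPM in mesoderm and 117 and 127 CPM in neuronal nuclei, a difference of 2.82 ± 0.21 (edgeR adjusted p = 0.00015). Six4, which acts in several mesoderm lineages, had 51.04 and 41.9 CPM against 4.13 and 4.72 CPM, and Poxm, a Pax factor of somatic muscle, had 39.8 and 40.05 CPM against 3.597 and 5.22 CPM. Neither gene overlapped between tissues, with differences of 3.39 ± 0.26 and 3.17 ± 0.26. The Six4 difference was not there at stages 14-17 (-0.25), and the 2 stages differed (interaction, edgeR adjusted p = 0.000817). repo, the factor of glia, had 21.4 and 23.9 CPM in mesoderm and 76.9 and 49.4 CPM in neuronal nuclei. pdm3, a POU factor, had 33.3 and 31.7 CPM against 65.03 and 49.1 CPM, and was not called without any 1 of the 4 libraries (edgeR adjusted p of 0.0514 to 0.182).

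The bHLH factors had 27 of 47 members higher in mesoderm and 9 in neuronal nuclei, and the 9 fell to 3 without mesoderm replicate 1 and to 4 without neuronal replicate 1. twi, which also selects the mesodermal nuclei and is therefore no finding here, had 371 and 437 CPM against 4.44 and 7.22 CPM and is uncertain, with 60.8% of its span overlapped. dysf, known from tracheal fusion cells, had 76.6 and 109.9 CPM in mesoderm and 13.8 and 11.6 CPM in neuronal nuclei (2.88 ± 0.25). Myc had 2419.9 and 2243 CPM against 189 and 191 CPM, but its whole span is overlapped and its reads are uncertain. On the neuronal side, gce, a juvenile hormone receptor, had 22.1 and 14.9 CPM in mesoderm and 136 and 88.5 CPM in neuronal nuclei, a difference of -2.60 ± 0.31. At stages 14-17 gce was higher in mesoderm by 2.32 (edgeR adjusted p = 0.00212). cyc, the partner of Clock in the circadian clock, was at low levels, with 1.56 and 1.51 CPM against 10.5 and 7.65 CPM. SREBP, a regulator of lipid synthesis, had 58.3 and 83.7 CPM against 210.0 and 191 CPM.

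Forkhead factors were higher in mesoderm for 12 of 17 and T-box factors for 5 of 7. bin, which specifies visceral mesoderm, had 68.98 and 78.8 CPM in mesoderm against 9.07 and 10.3 CPM in neuronal nuclei (2.93 ± 0.23). fkh, a factor of gut and salivary gland, had 319 and 319 CPM against 56.3 and 51.7 CPM (2.56 ± 0.16). CHES-1-like had 342 and 263 CPM against 72.5 and 65.7 CPM and was as far apart at stages 14-17 (2.36), whereas bin was 0.70 there. The 1 forkhead gene higher in neuronal nuclei was fd59A, at 3.74 and 4.02 CPM against 13.2 and 10.9 CPM. org-1, a T-box factor of muscle founders and visceral mesoderm, had 166 and 169 CPM in mesoderm and 15.6 and 17.6 CPM in neuronal nuclei, with both mesoderm libraries alike and far above both neuronal ones (3.33 ± 0.19). Doc1 and Doc3, of the dorsal mesoderm and amnioserosa, were higher in mesoderm by 1.70 and 2.17, as were Doc2 and mid, named here only to complete the count. The exception was H15, at 3.43 and 3.43 CPM against 10.8 and 6.88 CPM.

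All 5 GATA factors were higher in mesoderm, with a median difference of 2.45. GATAe, of the endoderm, had 154 and 189.9 CPM against 34.6 and 28.4 CPM, and grn had 381 and 465 CPM against 78.2 and 64.7 CPM. srp, the factor of hemocytes and fat body, had 467 and 437 CPM against 55.4 and 53.9 CPM and is uncertain, with 41.7% of its span overlapped. The remaining pnr and GATAd are named only to complete the count. Of 8 Sox factors 6 were higher in mesoderm and 0 in neuronal nuclei (1 with library totals). D and Sox14 were among them, at 109.5 and 107 CPM against 51.3 and 45.5 CPM and 71.4 and 76.4 CPM against 31.4 and 23.6 CPM.

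ETS factors went both ways, 3 toward mesoderm and 4 toward neuronal nuclei, so the median of -0.70 turned to 0.14 without neuronal replicate 1. The 4 fell to 2 without mesoderm replicate 1 or either neuronal replicate. The 3 higher in mesoderm act downstream of receptor tyrosine kinases. pnt, the activator, had 713 and 602 CPM in mesoderm and 96.8 and 79.8 CPM in neuronal nuclei (2.90 ± 0.22). aop, the repressor that opposes it, had 639 and 537 CPM against 111 and 97.8 CPM, and edl, a small protein that binds both, had 433 and 414 CPM against 89.5 and 104 CPM. All 3 were also higher in mesoderm at stages 14-17. On the neuronal side, Ets98B had 10.9 and 5.704 CPM against 128 and 94.4 CPM, a difference of -3.74 ± 0.39. Eip74EF, a gene of the ecdysone response, had 29.8 and 26.7 CPM against 153 and 112 CPM. Both were higher in mesoderm at stages 14-17, by 2.06 and 2.81. Ets21C and the low Ets96B complete the count of 4, and Ets96B lost its call in 2 alternatives (adjusted p of 0.0561 to 0.064, by edgeR without mesoderm replicate 1 and by DESeq2).

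Nuclear receptors were higher in mesoderm for 10 of 20 members and in neuronal nuclei for 3. Eip75B, an ecdysone-induced receptor, had 1419 and 1445 CPM in mesoderm and 391 and 279.9 CPM in neuronal nuclei (2.09 ± 0.27). EcR, the ecdysone receptor itself, had 335 and 268 CPM against 122 and 103 CPM, and Hr39 had 264 and 241 CPM against 106 and 85.2 CPM. These 3 did not overlap between tissues. The 3 higher in neuronal nuclei, Hr38, Hr83 and dsf, were all under 8 CPM, and each lost its call in at least 3 alternatives (edgeR, limma or DESeq2 adjusted p up to 0.244).

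Zinc finger factors had 37 of 60 members higher in mesoderm and 7 in neuronal nuclei (4 and 3 without mesoderm replicate 1 and 2). lmd, needed for fusion-competent myoblasts, was higher by 4.52 ± 0.26 (edgeR adjusted p = 0.000105), and at stages 14-17 by 1.74. Kah, a gene of the Snail-related family, had 604 and 504 CPM in mesoderm and 25.8 and 25.03 CPM in neuronal nuclei, close to lmd in all 4 libraries, and differed by 4.44 ± 0.26. bab2, a BTB-domain factor, had 821 and 779.7 CPM against 139 and 118 CPM. On the neuronal side, jim had 10.97 and 15.9 CPM against 129 and 93 CPM and ken had 29.97 and 18.9 CPM against 177 and 151 CPM. Both of these turned at stages 14-17, when they were higher in mesoderm by 1.58 and 1.01. nerfin-2 was low, at 0.249 and 0.291 CPM against 2.91 and 1.76 CPM.

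Of 43 factors of other families 21 were higher in mesoderm and 7 in neuronal nuclei. The 7 were 4 without mesoderm replicate 2, 3 without neuronal replicate 1 and 2 without neuronal replicate 2. Mef2, the main activator of muscle genes, had 1277 and 1003 CPM in mesoderm and 190.1 and 174 CPM in neuronal nuclei (2.65 ± 0.20), with no overlap. E2f1, a driver of S phase, had 489 and 482 CPM against 161 and 134 CPM. Mrtf, a coactivator of serum response factor, had 221 and 227 CPM against 65.7 and 67.1 CPM, and its difference of 1.75 became 3.98 at stages 14-17 (interaction, edgeR adjusted p = 0.00117). Jra, the fly Jun, had 31.6 and 29.5 CPM against 62.9 and 78.9 CPM. dl, the NF-kappaB factor Dorsal, had 39.3 and 35.7 CPM against 137 and 117 CPM at stages 10-13 (-1.76 ± 0.33) and was higher in mesoderm by 2.22 at stages 14-17.

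As counts per kilobase of exon, scaled to the same total in each library so that genes can be ranked within a tissue, hth led the transcription factors of mesoderm at 1756. The next were the Notch targets E(spl)m7-HLH (1071) and E(spl)mgamma-HLH (1003), edl (899), ttk (808) and ab (776). In neuronal nuclei the leading factor was E(spl)mbeta-HLH, at 333 on this scale, followed by the neuroblast factor cas (314), Hr78 (262), E(spl)m7-HLH (256), maf-S (201) and E(spl)mgamma-HLH (185). These genes were picked by their level, after values were seen, and give no test. The sources used here do not state whether reads in introns were counted. If they were, every ranking per exon length raises genes with long introns. Scaled by span free of other genes, ranks over all genes moved, as for CG33229 in mesoderm from 185 to 3. E(spl)m7-HLH and E(spl)mgamma-HLH were in the first 6 of both tissues.

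**Figure D2:**
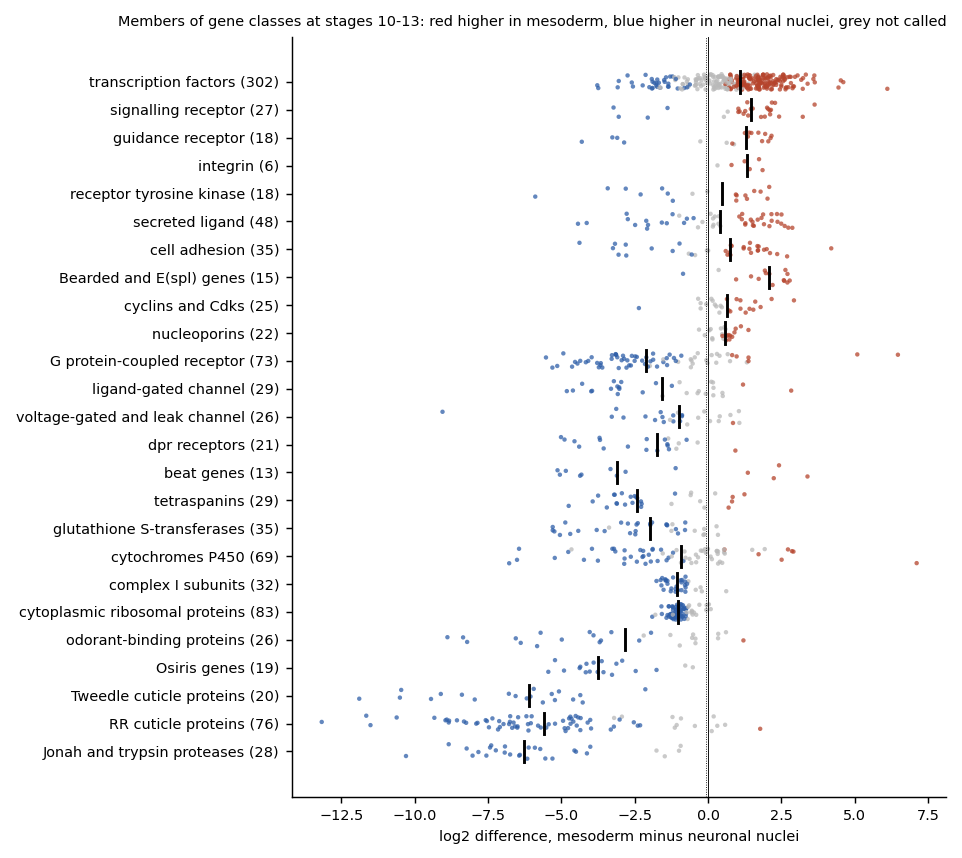
Difference of each tested member of 25 gene classes (points, log2 of mesoderm over neuronal level, with the number tested in brackets), the class median (black bar) and the median of all genes (dotted line). Transcription factors, signalling and guidance receptors and integrins lie mostly to the right of 0, while G protein-coupled receptors, channels, dpr genes, cuticle proteins and proteases lie to the left.

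Receptors as a whole were split: of 282 tested, 83 (29.4%) were higher in mesoderm and 106 (37.6%) in neuronal nuclei, against 23.2 and 29.5% of all genes, with a median of -0.23. The classes within went opposite ways. Receptors of the Notch, Hedgehog, Wnt, TGF-beta, Toll, cytokine and lipoprotein pathways had 21 of 27 members higher in mesoderm and 4 in neuronal nuclei, with a median of 1.46. Their summed level was 13415 and 13180.5 CPM in mesoderm and 3695 and 3314 CPM in neuronal nuclei. ptc, the Hedgehog receptor, had 1555 and 1306 CPM in mesoderm and 122 and 109 CPM in neuronal nuclei, a difference of 3.63 ± 0.27 (edgeR adjusted p = 0.00015). N, the Notch receptor, had 2494 and 2408 CPM against 275 and 249 CPM, and dally, a glypican that binds Dpp and Wingless, had 848 and 879.6 CPM against 166 and 157 CPM. In all 3 genes the mesoderm libraries were alike and far above the neuronal ones, and all 3 were again higher in mesoderm at stages 14-17. The 4 on the neuronal side were the lipoprotein-type receptors Lrp4, LpR1 and LpR2 and the BMP receptor wit. Lrp4 had 5.48 and 6.23 CPM against 67.3 and 42.1 CPM, LpR1 17.01 and 7.62 CPM against 121 and 81.95 CPM, and LpR2 18.01 and 13.7 CPM against 79.1 and 53 CPM. LpR1 and LpR2 were higher in mesoderm at stages 14-17, by 1.49 and 1.20.

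Receptor tyrosine kinases were split, with 9 of 18 higher in mesoderm and 7 in neuronal nuclei (4 without mesoderm replicate 1). Egfr had 808 and 854 CPM in mesoderm and 232 and 177 CPM in neuronal nuclei (2.03 ± 0.21). htl, the FGF receptor of the mesoderm, had 191 and 146 CPM against 49.1 and 48.5 CPM, and dnt, a Ryk-type Wnt receptor, had 245 and 256 CPM against 58.8 and 59.4 CPM. On the other side stood sev, known from the photoreceptor R7, with 1.31 and 0.931 CPM in mesoderm and 79.01 and 54.2 CPM in neuronal nuclei. Its difference of -5.89 ± 0.43 (edgeR adjusted p = 0.00015) was the largest of this class in either direction, and at stages 14-17 it was 0.02. Tie had 6.92 and 4.83 CPM against 68.4 and 57.5 CPM, and was higher in mesoderm at stages 14-17 by 1.20. Cad96Ca, at 12.6 and 19.1 CPM against 104 and 118 CPM, is uncertain because 79.03% of its span is overlapped.

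Guidance receptors had 11 of 18 members (61.1%) higher in mesoderm and 4 (22.2%) in neuronal nuclei, against 23.2 and 29.5% of all genes. robo1 and robo2, receptors of the midline repellent Slit, had 551 and 505 CPM and 1595 and 1466 CPM in mesoderm and 171 and 151 CPM and 391 and 347 CPM in neuronal nuclei, with no overlap. Their differences were 1.71 ± 0.18 and 2.05 ± 0.21. The third receptor of this kind, robo3, was on the other side, at 9.66 and 14.1 CPM in mesoderm against 93.1 and 80.1 CPM in neuronal nuclei. So were the paralogs of Dscam1: Dscam2 had 6.17 and 4.42 CPM against 68.7 and 33.1 CPM, Dscam3 2.12 and 1.397 CPM against 44.6 and 24.98 CPM, and Dscam4 5.67 and 3.900 CPM against 50.8 and 31.1 CPM. In all 4 genes every neuronal library was above every mesoderm library. Ten-m, a teneurin, was higher in mesoderm, at 1213 and 1214 CPM against 351 and 326 CPM, but is uncertain, with 53.2% of its span overlapped. Of 6 integrin subunits 5 were higher in mesoderm: mew, mys and Itgbn by 1.86, 1.24 and 1.42, and ItgaPS4 and if, named to complete the count. The 5 were 3 without mesoderm replicate 1 or without neuronal replicate 2.

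G protein-coupled receptors were mostly on the neuronal side, with 49 of 73 (67.1%) higher there and 6 (8.22%) higher in mesoderm, and a median of -2.11. Their levels were low, with median member levels of 2.55 and 2.33 CPM in mesoderm and 13.8 and 9.43 CPM in neuronal nuclei. The summed level went the other way, 6308 and 7158 CPM against 4194 and 2922 CPM, and Cirl alone had 4636 and 5772 CPM in mesoderm and 2419 and 1588 CPM in neuronal nuclei. Cirl, the fly latrophilin, was also the highest receptor per exon length in both tissues, at 1797 in mesoderm and 556 in neuronal nuclei on the length-scaled measure. Oamb, a receptor of octopamine, had 0.561 and 0.757 CPM in mesoderm and 19.9 and 13.2 CPM in neuronal nuclei (-4.64 ± 0.38). PK2-R2, a pyrokinin receptor, had 1.37 and 1.34 CPM against 53.3 and 42.8 CPM, and AdoR, the adenosine receptor, had 0.499 and 0.757 CPM against 15.9 and 13.5 CPM. In each the tissues did not overlap, and none of the 3 differed past the threshold at stages 14-17. Of the 49, 3 were higher in neuronal nuclei at that stage too and 18 were then higher in mesoderm.

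The 6 G protein-coupled receptors higher in mesoderm were 2 with library totals or without mesoderm replicate 1, and 3 without each of the other libraries in turn. Beside AstA-R1, Pdfr, the receptor of the neuropeptide PDF, had 119 and 105 CPM in mesoderm and 3.003 and 3.56 CPM in neuronal nuclei, a difference of 5.09 ± 0.23 (edgeR adjusted p = 8.03e-05). At stages 14-17 Pdfr had 64.4 and 77.9 CPM against 3.95 and 4.25 CPM, so all 4 mesoderm libraries were above all 4 neuronal libraries. Tre1, which guides germ cells, was higher by 0.82, a call lost in 4 alternatives (edgeR adjusted p of 0.0558 to 0.117).

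**Figure D3:**
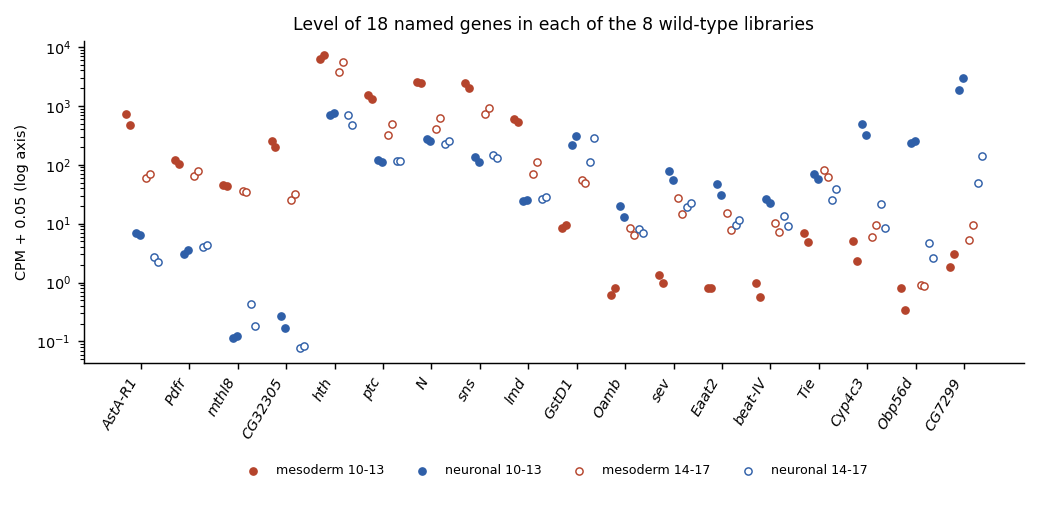
Level of 18 genes (CPM + 0.05, log axis) in each of the 8 wild-type libraries, with filled points for stages 10-13 and open points for stages 14-17, red for mesoderm and blue for neuronal nuclei. The tissues stay apart at both stages for AstA-R1, Pdfr, mthl8 and CG32305, while for sev, Oamb, Eaat2 and beat-IV the open points of the tissues lie together.

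Channels followed the same side. In neuronal nuclei 51.7% of ligand-gated and 53.8% of voltage-gated and leak channels were higher, against 29.5% of all genes. Ligand-gated channels were higher in neuronal nuclei for 15 of 29 members and in mesoderm for 2 (1 with any single library left out, with library totals or in limma-voom), and voltage-gated and leak channels for 14 of 26 and 1. The 14 fell to 8 without mesoderm replicate 2 or neuronal replicate 1, and the 1 ranged from 0 to 4 over the alternatives. Rdl, a GABA receptor subunit, had 10.9 and 3.32 CPM in mesoderm and 168 and 110.4 CPM in neuronal nuclei (-4.29 ± 0.53), and GluRIA, an AMPA-type glutamate receptor subunit, had 1.25 and 1.51 CPM against 27.3 and 16.5 CPM. Ih, the hyperpolarisation-activated channel, had 17.6 and 18.6 CPM against 189 and 128 CPM, and ClC-a, a chloride channel, had 9.16 and 4.83 CPM against 77.9 and 58.2 CPM. All of these were without overlap, but Rdl, Ih and Grd were higher in mesoderm at stages 14-17, by 1.43, 0.85 and 1.48. nAChRalpha3, a nicotinic receptor subunit, ran against its class, with 246 and 218 CPM in mesoderm and 33.4 and 31.6 CPM in neuronal nuclei (2.83 ± 0.28), and with 3.53 at stages 14-17. The others toward mesoderm were clumsy (1.19) and NaCP60E (0.85), which lost their calls in 6 and 3 alternatives (edgeR or limma adjusted p of 0.0835 to 0.155 and 0.0666 to 0.11).

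Cell-surface families that match neuronal partners had more members called higher in neuronal nuclei than in mesoderm, but their summed levels did not all go that way. Of 21 dpr genes, immunoglobulin proteins that bind DIP proteins, 16 were higher in neuronal nuclei (10 without mesoderm replicate 1), with a median of -1.73, and 1 in mesoderm. The 21 genes summed to 221 and 204.5 CPM in mesoderm and to 567 and 424 CPM in neuronal nuclei. dpr5 had 0.623 and 0.175 CPM in mesoderm and 14.8 and 11 CPM in neuronal nuclei (-5.01 ± 0.55), and dpr11 had 1.87 and 0.291 CPM against 31.6 and 18.9 CPM. The exception, dpr19, had 84.5 and 72.4 CPM against 40.7 and 41.7 CPM and lost its call in 5 alternatives (edgeR adjusted p of 0.0528 to 0.12). Of 11 DIP genes 7 were higher in neuronal nuclei and 2, DIP-alpha and DIP-epsilon, in mesoderm (1 with overlapped genes left out). The 11 genes summed to 385 and 387 CPM in mesoderm and to 183 and 168 CPM in neuronal nuclei. DIP-epsilon had 26.5 and 30.03 CPM in mesoderm against 9.29 and 8.66 CPM, and DIP-kappa 1.74 and 0.873 CPM against 15.4 and 12.1 CPM. DIP-alpha, at 297 and 266 CPM against 45.98 and 69.2 CPM, is uncertain (46.2% overlapped).

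The beat genes, whose proteins bind those of the side family, were split into 9 higher in neuronal nuclei and 4 higher in mesoderm. None of the 13 tested was outside the calls. The 13 genes summed to 783 and 680 CPM in mesoderm and to 401.5 and 340 CPM in neuronal nuclei. beat-IV had 0.935 and 0.524 CPM in mesoderm and 25.9 and 22.6 CPM in neuronal nuclei, and beat-VII had 0.872 and 0.407 CPM against 25.4 and 19.5 CPM. In contrast, beat-Ic had 114 and 81.2 CPM against 10.4 and 8.28 CPM (3.39 ± 0.36) and beat-IIIc 461 and 384 CPM against 75.6 and 82.6 CPM (2.42 ± 0.35), and beat-IIa and beat-IIb were also higher in mesoderm. All 4 of these were higher in mesoderm at stages 14-17. Among 8 side genes, 3 were higher in mesoderm and 4 in neuronal nuclei, with sums of 1238 and 1209.5 CPM against 577 and 493 CPM. side-V led toward mesoderm with 665 and 620.0 CPM against 109 and 97.8 CPM, and side-II and side-III toward neuronal nuclei with -3.21 and -3.07. Of 6 kekkon genes 2 were higher in mesoderm and 3 in neuronal nuclei, with a median of -0.72 and differences from -5.07 to 4.41. The 6 genes summed to 3245 and 3510 CPM in mesoderm and to 445 and 463 CPM in neuronal nuclei. In both tissues kek5 alone, with the levels given above, made up most of this sum, so the sums describe that gene more than the family. The largest difference toward mesoderm was that of kek4, with 86.4 and 70.5 CPM in mesoderm and 3.82 and 3.54 CPM in neuronal nuclei (4.41 ± 0.35).

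Other adhesion molecules had 21 of 35 members higher in mesoderm and 10 (28.6%) in neuronal nuclei, the latter near the 29.5% of all genes. sns, the immunoglobulin protein by which fusion-competent myoblasts attach to founders, had 2454 and 2001 CPM in mesoderm and 133 and 110.0 CPM in neuronal nuclei, a difference of 4.20 ± 0.25 (edgeR adjusted p = 0.000105). ed, which joins epithelial cells, had 3117 and 3346 CPM against 483 and 516 CPM, and tok, a Tolloid-type protease listed with them, had 186 and 186 CPM against 50.4 and 42.6 CPM. Of those higher in neuronal nuclei, Nlg3, a neuroligin, had 1.25 and 0.524 CPM against 21.6 and 15.4 CPM, and CadN2, a cadherin, had 3.303 and 2.15 CPM against 28.3 and 16.99 CPM. Nlg3 was higher in mesoderm at stages 14-17 by 1.51.

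Secreted ligands had 23 of 48 members (47.9%) higher in mesoderm and 14 (29.2%) in neuronal nuclei, the latter near the 29.5% of all genes and down to 9 without either mesoderm replicate. Pvf3, a PDGF- and VEGF-related ligand, had 407 and 412 CPM in mesoderm and 55.7 and 56.2 CPM in neuronal nuclei, with the 2 libraries of each tissue nearly equal (2.87 ± 0.18; edgeR adjusted p = 0.000109). NetB, a netrin, had 999 and 872 CPM against 137 and 144 CPM, and vn, a neuregulin-like ligand of Egfr, had 242 and 210.4 CPM against 49.1 and 52.1 CPM. Those named on the neuronal side are ligands of the Spatzle family: spz5 had 6.04 and 2.79 CPM against 89.6 and 65.9 CPM, NT1 19.1 and 15.02 CPM against 106 and 127 CPM, and spz3 17.7 and 19.1 CPM against 143 and 102 CPM. Among the Toll receptors that bind such ligands 4 of 5 were higher in mesoderm and 0 in neuronal nuclei (1 with library totals or with the 4 early libraries alone). Tollo had 418 and 473 CPM in mesoderm and 99.3 and 83.8 CPM in neuronal nuclei, and Tl 765 and 719 CPM against 224 and 200.2 CPM.

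A list of 42 textbook ligand and receptor pairs, 41 with both genes tested, was used to set the sides next to each other; pairs share genes and are not independent. In 17 pairs ligand and receptor were both higher in mesoderm, among them hh and ptc, jeb and Alk, ths and htl, pyr and htl, NetA and fra, and sli and robo1. In 6 both were higher in neuronal nuclei: boss and sev, AstA and AstA-R2, sNPF and sNPF-R, Dh44 and Dh44-R1, Dh31 and Dh31-R, and ETH and ETHR. boss, the ligand of sev, had 2.18 and 2.97 CPM in mesoderm and 23.1 and 21.1 CPM in neuronal nuclei, and Dh31, a diuretic hormone, had 0.623 and 0.466 CPM against 39.3 and 43.5 CPM. Ligand and receptor were on different sides in 8 pairs. In 5 the ligand was higher in neuronal nuclei and the receptor in mesoderm: spz and Tl, spz5 and Toll-6, upd3 and dome, AstA and AstA-R1, and Pdf and Pdfr. AstA had 0.872 and 0.873 CPM in mesoderm and 9.73 and 10.2 CPM in neuronal nuclei, and Pdf 0.748 and 0.291 CPM against 8.32 and 7.15 CPM, opposite to their receptors. In 3 it was the reverse: sli and robo3, gbb and wit, and side and beat-Ia, where the call of side was lost in 4 alternatives (edgeR adjusted p of 0.054 to 0.083). The genes of these pairs were named after their values were seen.

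Chemoreceptor families were mostly too low to test. Of 60 gustatory receptors 20 were tested, of 60 odorant receptors 20 and of 60 ionotropic receptors 18. Apart from Gr8a, the members past 10 CPM were Ir40a, with 2.74 and 2.33 CPM in mesoderm and 97.6 and 159.7 CPM in neuronal nuclei, Ir68a, with 14.02 and 14.1 CPM against 3.88 and 4.67 CPM, and Ir21a and Ir76a, which overlap other genes and are uncertain. Ir40a, known from humidity sensing in the adult antenna, was without overlap (-5.66 ± 0.70) and stayed higher in neuronal nuclei at stages 14-17 (-3.28; edgeR adjusted p = 0.00894). Among the pickpocket sodium channels ppk13 was higher in mesoderm, at 43 and 60.3 CPM against 5.76 and 6.55 CPM. Among the Methuselah-like receptors mthl1 was higher in mesoderm too (185 and 148 CPM against 53.8 and 53.4 CPM), and mthl4 in neuronal nuclei (0.499 and 0.640 CPM against 13.9 and 15.7 CPM).

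RNA-binding proteins had 15 of 25 members higher in mesoderm and 1, Rbp6, in neuronal nuclei. spen had 2714 and 3204 CPM in mesoderm and 644 and 613 CPM in neuronal nuclei, how, a KH-domain protein of muscle and tendon cells, had 1139.7 and 877 CPM against 246 and 304 CPM, and Syp had 49.98 and 47.8 CPM against 11.3 and 13.4 CPM. None of these overlapped between tissues, and 13 of the 15 were higher in mesoderm at stages 14-17. Rbp6, related to Musashi, had 31.3 and 42.9 CPM against 119 and 103 CPM and was then higher in mesoderm, by 1.84.

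Families of the body surface were mostly higher in neuronal nuclei. Of 76 tested RR cuticle proteins 64 (84.2%) were higher in neuronal nuclei, each by at least 4-fold, and 1, Cpr49Ae, in mesoderm (0 without mesoderm replicate 1 or either neuronal replicate), with a median of -5.61. All 20 tested Tweedle proteins were higher in neuronal nuclei, with a median of -6.12. TwdlJ had 0.0623 and 0 CPM in mesoderm and 126 and 141 CPM in neuronal nuclei, and Cpr47Eb had 0.0623 and 0.0582 CPM against 126 and 294 CPM. These genes held together in the 2 neuronal libraries and were low in mesoderm, but the pattern did not carry over to stages 14-17: 7 RR genes and 1 Tweedle gene were higher in neuronal nuclei there. Of 19 Osiris genes, which act in cuticle-forming cells, 17 were higher in neuronal nuclei. Osi2 had 18.1 and 2.91 CPM in mesoderm and 331 and 582 CPM in neuronal nuclei, with mesoderm replicate 1 about 6-fold above replicate 2. Chitinases and chitin deacetylases had 15 of 18 members higher in neuronal nuclei, among them serp, at 90.9 and 125 CPM against 1191 and 1031 CPM.

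Digestive and detoxification families were on the same side. The Jonah and trypsin proteases had 24 of 28 members higher in neuronal nuclei and 0 in mesoderm, with a median of -6.29, and 19 of the 24 were so at stages 14-17 too. The 24 were 11 without mesoderm replicate 1, 8 without mesoderm replicate 2, 13 without neuronal replicate 1 and 12 without neuronal replicate 2, and limma-voom called 2. Their sums were 19.3 and 14.1 CPM in mesoderm and 786 and 976 CPM in neuronal nuclei, and 201 and 4278 CPM in the neuronal libraries of stages 14-17, which stood far apart from each other. Several of these genes are close copies, so single members such as betaTry (0 and 0.0582 CPM against 34.5 and 53.9 CPM) are uncertain. Glutathione S-transferases had 26 of 35 members higher in neuronal nuclei and 0 in mesoderm, with 16 of the 26 again higher at stages 14-17, and the 26 fell to 14 without mesoderm replicate 2. GstD1 had 8.54 and 9.37 CPM in mesoderm and 219.8 and 303 CPM in neuronal nuclei (-4.87 ± 0.47), and GstZ2 2.37 and 2.095 CPM against 64.2 and 51.9 CPM. Of 69 cytochromes P450 31 (44.9%) were higher in neuronal nuclei and 7 (10.1%) in mesoderm, against 29.5 and 23.2% of all genes. The 31 were 19 without mesoderm replicate 2 and 20 without neuronal replicate 2, which also left 4 of the 7. Cyp4c3 had 5.05 and 2.27 CPM against 485 and 318 CPM, and Cyp4g15 0.685 and 0.640 CPM against 69.7 and 46.5 CPM, whereas Cyp4d21 was higher in mesoderm at 14.5 and 10.8 CPM against 2.25 and 1.13 CPM.

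**Figure D4:**
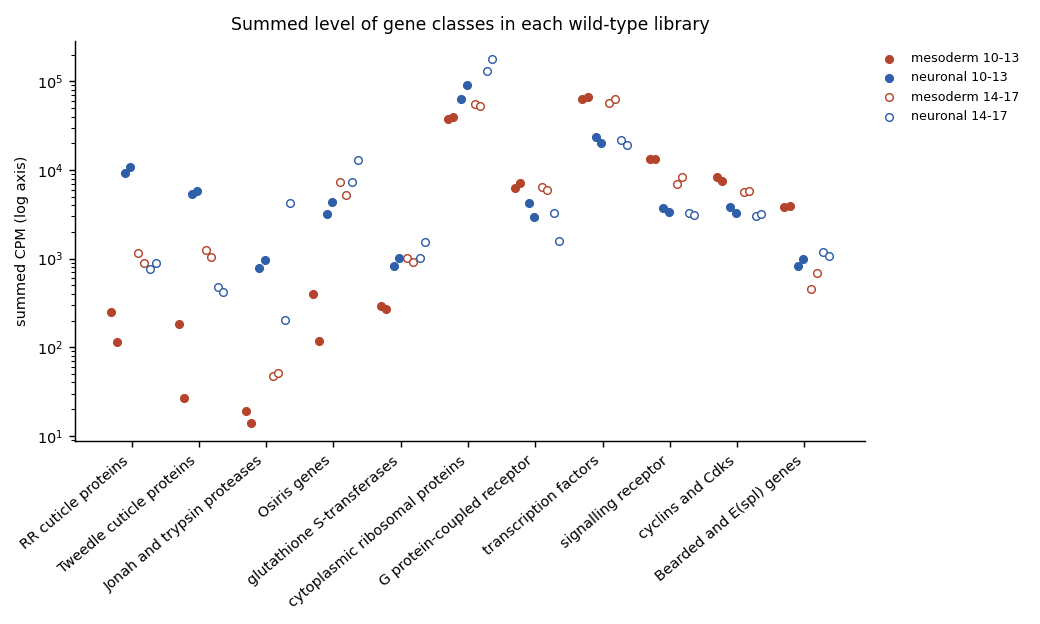
Summed level of the tested members of 11 gene classes (CPM, log axis) in each of the 8 wild-type libraries, marked as filled points for stages 10-13 and open points for stages 14-17. Cuticle proteins are highest in the 2 neuronal libraries of stages 10-13, at 9191 and 10816 CPM for RR proteins, and transcription factors and signalling receptors are higher in mesoderm at both stages.

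Among membrane and secreted families, tetraspanins had 19 of 29 members higher in neuronal nuclei, 18 of them by at least 4-fold, and 4 higher in mesoderm (1 with library totals or without mesoderm replicate 1, 2 without either neuronal replicate). Tsp42Ek had 0.872 and 0.466 CPM in mesoderm and 17.7 and 18.4 CPM in neuronal nuclei, and Tsp96F, on the other side, 245 and 170.0 CPM against 83.2 and 92.5 CPM. Odorant-binding proteins had 15 of 26 members higher in neuronal nuclei, led by Obp56d with 0.748 and 0.291 CPM against 233 and 257 CPM (-8.88 ± 0.48; edgeR adjusted p = 0.000105). Eaat2, a glutamate transporter, had 0.748 and 0.757 CPM against 46.6 and 30.2 CPM, and Nep1, a neprilysin peptidase, 2.37 and 2.21 CPM against 54.3 and 44.1 CPM. Basement membrane genes went both ways: the laminin subunits wb and LanA had 772 and 882 CPM and 3212 and 3128 CPM in mesoderm against 106 and 95.4 CPM and 714 and 684 CPM, while the collagen Col4a1 had 281 and 248 CPM against 683 and 614 CPM. Col4a1 and the collagen Mp were higher in mesoderm at stages 14-17, by 1.48 and 2.50. The metalloproteases kuz and Mmp2 were higher in mesoderm by 2.37 and 1.73, and Mmp1 had 24.7 and 16.1 CPM in mesoderm and 76.01 and 50.04 CPM in neuronal nuclei.

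Smaller families gave single genes on either side. Serpins, inhibitors of proteases, had 7 of 18 members higher in neuronal nuclei and 3 in mesoderm (1 without neuronal replicate 2). These serpin shares, 38.9 and 16.7%, stand beside 29.5 and 23.2% of all genes. Spn77Ba had 1.56 and 1.51 CPM in mesoderm and 40.6 and 36.03 CPM in neuronal nuclei, and its neighbour in name Spn77Bc was on the other side, at 9.47 and 11.4 CPM against 2.28 and 1.73 CPM. Mucins and related proteins had 7 of 14 members higher in neuronal nuclei (4 without either mesoderm replicate), with Muc68Ca at 0.0623 and 0.116 CPM against 85.5 and 51.5 CPM, while Muc30E had 87.8 and 172 CPM in mesoderm against 11.4 and 4.69 CPM. Both mesoderm libraries were above both neuronal libraries for Muc30E and Spn77Bc, and below them for Spn77Ba and Muc68Ca.

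Of 4 tested innexins, which form gap junctions, ogre and shakB were higher in mesoderm, at 708 and 646 CPM against 236 and 205 CPM and 246 and 199.6 CPM against 87.2 and 103 CPM. The call of shakB was lost without mesoderm replicate 1 or neuronal replicate 1 (edgeR adjusted p of 0.0565 to 0.0603). Organic anion transporters had 4 of 8 members higher in mesoderm and 0 in neuronal nuclei (1 with library totals or the 4 early libraries alone). The vacuolar ATPase subunits had 10 of 21 members higher in neuronal nuclei (5 without mesoderm replicate 1 or neuronal replicate 2, 6 without mesoderm replicate 2) and 0 in mesoderm, with Vha100-4 at 8.79 and 6.46 CPM against 148 and 124 CPM (-4.16 ± 0.33). Vacuolar ATPase subunits higher in neuronal nuclei were 47.6% of those tested, beside 29.5% of all genes. The heat shock gene Hsp70Bb, a close copy of other Hsp70 genes and so uncertain, had 6.17 and 16.2 CPM in mesoderm and 292 and 174 CPM in neuronal nuclei. Mlc2, a myosin light chain of muscle, followed Mhc, with 116 and 68.3 CPM in the libraries labelled mesoderm and 626 and 818 CPM in those labelled neuronal.

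Genes of protein synthesis and respiration differed by small amounts and in 1 direction. Of 83 cytoplasmic ribosomal protein genes 66 were higher in neuronal nuclei and 0 in mesoderm, with a median of -1.01, and the same 66 were higher in neuronal nuclei at stages 14-17. The 66 fell to 8 without mesoderm replicate 1, 21 without mesoderm replicate 2 and 20 without neuronal replicate 2. Transcripts of all 83 were 3.63 and 3.82% of counts in mesoderm and 7.21 and 10.4% in neuronal nuclei. RpLP1 had 314 and 339 CPM in mesoderm and 719 and 1247 CPM in neuronal nuclei. Complex I subunits had 27 of 32 members higher in neuronal nuclei and 0 in mesoderm, 25 of them at both stages, and proteasome subunits 16 of 33 and 0. In the same order of omitted libraries the 27 were 12, 16 and 15 and the 16 were 6, 5 and 5, and the 4 early libraries alone gave 1 proteasome gene higher in mesoderm. ND-18 had 7.48 and 10.4 CPM against 25.6 and 35.1 CPM, and Prosbeta3 19.3 and 17.9 CPM against 45.2 and 52.9 CPM. The share of mitochondrial reads moved with them, as given above, and its part in the result was not tested.

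Genes of dividing cells and of Notch-responding cells were on the mesoderm side. Cyclins, Cdks and their regulators had 13 of 25 members higher in mesoderm and 1, Cdk5alpha, in neuronal nuclei. stg, the Cdc25 phosphatase that starts mitosis, had 1055 and 956 CPM in mesoderm and 139.9 and 125 CPM in neuronal nuclei (2.93 ± 0.29), and CycE 272 and 183 CPM against 59.1 and 42.6 CPM. Replication factors had 9 of 16 members higher in mesoderm (5 without mesoderm replicate 1), with Mcm2 at 130.2 and 113 CPM against 50.6 and 53.2 CPM, and the mitotic kinesin cmet had 221 and 219.8 CPM against 40.9 and 28.8 CPM. Of these, stg, Mcm2 and cmet did not pass at stages 14-17, with 0.05, -0.35 and 0.02. The Bearded and E(spl) genes, targets of Notch, had 13 of 15 members higher in mesoderm, with sums of 3792 and 3931 CPM against 835 and 999 CPM, and 10 of the 13 were higher in neuronal nuclei at stages 14-17. E(spl)malpha-BFM had 325 and 309 CPM against 40.8 and 51.5 CPM. The exception, E(spl)m6-BFM, lost its call in 3 alternatives (edgeR adjusted p of 0.0815 to 0.22). Nucleoporins had 11 of 22 members and Mediator subunits 11 of 27 higher in mesoderm, with 0 of either in neuronal nuclei. The nucleoporins were 5 without mesoderm replicate 1, 6 without neuronal replicate 2 and 5 with library totals, where Mediator subunits were 7 in mesoderm and 1 in neuronal nuclei. Nup153 had 764 and 723 CPM against 327 and 247 CPM.

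Genes without a name were less on the mesoderm side than named ones. Of 3939 tested coding genes known only by a CG number, 589 (15%) were higher in mesoderm and 1399 (35.5%) in neuronal nuclei, against 1786 (28%) and 1671 (26.2%) of 6388 named coding genes. At 4-fold or more the unnamed genes were 136 and 932. Scaling by library totals alone left 368 unnamed genes higher in mesoderm, and leaving out neuronal replicate 2 left 315. Of 197 tested identifiers that matched no symbol, 67 were higher in mesoderm and 43 in neuronal nuclei. Non-coding genes were scarce, with 18 of 244 tested, 7 higher in mesoderm and 2 in neuronal nuclei, and none of those called reached the 10 CPM asked of a named gene.

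Runs of neighbouring genes were mostly on the neuronal side. Those of at least 5 tested genes, all at least 4-fold different in 1 direction, numbered 42 for neuronal nuclei and 1 for mesoderm. Genes that could enter such a run were 17.1% of all tested for neuronal nuclei and 4.04% for mesoderm. The 42 runs held 315 genes, 17.5% of the 1800, and the mesoderm run held 1.17% of the 426. Of the 315 genes 193 (61.3%) were unnamed, beside 932 of the 1800. Among the 315 were 43 cuticle proteins and 13 Osiris genes. The longest had 22 genes in 64.1 kb, from CG13049 to CG4998 at 3L:16281132-16345241, with a median of -6.26. The next, of 19 genes from CG15020 to CG11353 at 3L:4421662-4539270, mixes unnamed genes with nAChRbeta1, NT1 and Tie. Runs of 15, 12, 12 and 10 genes held Tweedle genes (3R:26619118-26714159), the Lcp65A cuticle genes (3L:6123934-6151803), Osiris genes (3R:6284462-6341424) and the Tsp42E tetraspanins (2R:7025010-7054399). The mesoderm run, at 2L:5956489-5964951, held CG13998, Vm26Ab, Vm26Ac, Vm26Aa and psd, a group that includes vitelline membrane genes. Of these psd had 31.8 and 28.3 CPM in mesoderm and 1.69 and 2.43 CPM in neuronal nuclei, and the others were under 4 CPM. Without a minimum fold there were 93 runs for neuronal nuclei and 13 for mesoderm.

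Genes higher in mesoderm were longer. Coding genes higher in mesoderm had a median span of 5239 bases and 4 introns, those higher in neuronal nuclei 2400.5 bases and 3 introns, and those not called 2105 bases and 2 introns. The share higher in mesoderm went from 5.97% of 1272 genes under 1 kb to 39% at 10 to 20 kb, 38.6% at 20 to 50 kb and 50.5% of 291 genes over 50 kb. The share higher in neuronal nuclei was 39.9% under 1 kb, 25.1% at 2 to 5 kb, 33.3% at 20 to 50 kb and 22.7% over 50 kb. By chromosome, 34.6% of 78 genes of chromosome 4 and 27.8% of 1621 genes of X were higher in mesoderm, against 20.4% of 2664 genes of 3R. The sources used here do not state how reads were counted, and gene length, level and class are not separated in these shares.

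**Figure D5:**
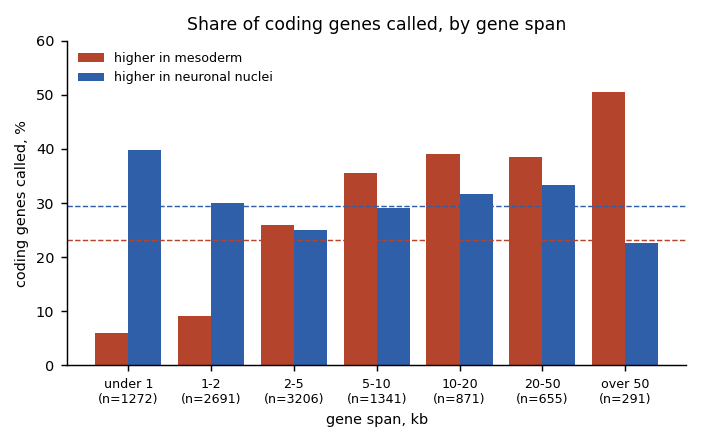
Share of tested coding genes higher in mesoderm (red bars) and in neuronal nuclei (blue bars), in percent, by gene span in kb, with the shares over all tested genes as dashed lines (23.2 and 29.5%). The red bars stand at 5.97% for genes under 1 kb and at 50.5% for genes over 50 kb.

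Most genes far apart between the mesoderm replicates were higher in neuronal nuclei. Among 7846 genes at 10 CPM or more in the higher tissue, 75 were more than 4-fold apart between the mesoderm libraries. All were higher in replicate 1, and 66 of the 75 were higher in neuronal nuclei. The 75 include 6 Tweedle, 8 RR cuticle and 3 Osiris genes and 44 unnamed genes. A gene low in mesoderm enters the 7846 only through its neuronal level, so the limit itself favours such genes. Of genes at 10 to 100, 100 to 1000 and over 1000 CPM in the higher tissue, 32.6, 23.3 and 28.5% were higher in neuronal nuclei. Between the neuronal libraries 4 genes were more than 4-fold apart. Leaving out mesoderm replicate 1 left 2141 genes higher in neuronal nuclei.

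The tissue difference was compared with stages 14-17, where no library is shared although all 8 were fitted together. Of the 2451 genes higher in mesoderm at stages 10-13, 991 were also higher there at stages 14-17, which is 40.4% of the early and 49.5% of the 2004 late genes, and 198 (8.08%) were higher in neuronal nuclei. Of the 3115 genes higher in neuronal nuclei, 828 were so at both stages, 26.6% of the early and 35.4% of the 2336 late genes, and 424 (13.6%) were then higher in mesoderm. The background share of late calls was 19.0% for mesoderm and 22.1% for neuronal nuclei. The difference between stages passed the interaction test for 928 genes of the first set and 1784 of the second. Transcription factors, integrins and RNA-binding proteins higher in mesoderm were called again for 96 of 170, 4 of 5 and 13 of 15 members. On the neuronal side ribosomal proteins, complex I subunits and Jonah and trypsin proteases were, for 66 of 66, 25 of 27 and 19 of 24, whereas dpr genes and ligand-gated channels were for 0 of 16 and 0 of 15.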

How the data were processed

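Total RNA of INTACT-captured nuclei was sequenced. The values are read counts per gene, whole numbers as the authors deposited them, with 1 table per wild-type library. Per the submitters' processing notes FastQC and HTSeq were used with the builds BDGP6 and dm6. The sources used here name no aligner, counting mode or tool version. Of 14156 identifiers 13929 matched a symbol in the Ensembl annotation of BDGP6, which also gave spans, overlaps and coordinates. The counts themselves do not separate spliced from unspliced RNA.

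All 8 wild-type libraries were fitted in 1 model of 4 groups with edgeR 4.0.16 (R 4.3.3), after filterByExpr and TMM normalisation, with quasi-likelihood tests and Benjamini-Hochberg adjustment over 10549 genes. This left 4 residual degrees of freedom, at a common biological coefficient of variation of 0.277. The mesoderm and neuronal contrasts at both stages and their interaction came from this fit. Depth was 12970816 to 36150646 counts per library, and the floor for a gene at 0 was 3 counts per library, which covers counting error only. The alternatives were RLE size factors, library totals, no filter, 4 libraries only, a replicate block, genes under 40% overlapped, leaving out each library, limma-voom (limma 3.58.1) and DESeq2 1.42.0.

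The genes and lists were chosen with earlier results of these data known. Named genes are the 10 largest differences in each direction among genes called, at 10 CPM or more in the higher tissue, without overlap between libraries and under 40% overlapped, the 5 largest by level per exon length, up to 3 per direction with the smallest adjusted p in each list, and up to 2 per direction with the largest difference in each family. A few always-named genes (twi, Mef2, repo, Ubx) were added. Genes given only to complete a count, in ligand and receptor pairs, in runs of neighbours, as tissue markers or by level rank (among them robo3, wit, boss, Cirl and psd) fall outside this rule and were chosen after their values were seen. The 6 libraries with degraded or control Ubx were not used here.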

Additional observations from a re-analysis of the deposited data

Results flagged for a closer look

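The tissue difference itself differed between stages for 928 genes higher in mesoderm and 1784 genes higher in neuronal nuclei at stages 10-13 (interaction term, edgeR adjusted p under 0.05). Among the genes described above, 22 passed that test and were also called in the opposite direction at stages 14-17. For these the difference at stages 10-13 less that at stages 14-17 is given on the log2 scale. The Bearded-type gene Tom (3.89) and the odorant-binding gene Obp99a (3.10) went from mesoderm to neuronal nuclei.

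The others went from neuronal nuclei to mesoderm. Among transcription factors they were gce (-4.92), Ets98B (-5.80), Eip74EF (-5.04), ken (-3.75), jim (-4.62) and dl (-3.98). Among receptors and channels they were Tie (-4.62), LpR1 (-4.54), LpR2 (-3.25), Grd (-4.51), Rdl (-5.72), Ih (-3.98) and Ir21a (-4.38). The adhesion gene Nlg3 (-5.89), the ligand spz3 (-3.72), the RNA-binding gene Rbp6 (-3.42), the serpin gene Spn77Ba (-5.42) and the matrix genes Mp (-5.32), Col4a1 (-2.78) and Mmp1 (-3.12) complete the set. Cuticle sums were high in the neuronal libraries of stages 10-13 and not in those of stages 14-17, as given above, and the part of this in the 22 differences was not tested.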

How the results depend on the processing

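No named gene changed direction in the alternatives that gave it a value, which was 258 of 268 genes with the limit on overlap, 267 without neuronal replicate 1 or 2, and all 268 in the others. Of 268 named genes, 2 lost their call with DESeq2, 1 with RLE size factors, 8 with library totals, 9 with limma-voom and 2 with the replicate block, and 0 without a filter or with only the 4 libraries of stages 10-13. Leaving out 1 library cost 21 to 30 calls. Genes higher in mesoderm (2451) numbered 1664 with library totals, 3051 with 4 libraries, 2534 with limma-voom and 2688 with DESeq2, and 1562 (without neuronal replicate 2) to 2076 when 1 library was left out. Genes higher in neuronal nuclei (3115) numbered 2135 to 2474 when 1 library was left out. Transcription factors (170 and 34) numbered 143 to 156 and 17 to 20, receptors (83 and 106) 61 to 69 and 75 to 87, and unnamed coding genes (589 and 1399) 315 to 433 and 985 to 1100. Unnamed genes higher in mesoderm were 388 without mesoderm replicate 1, 315 without neuronal replicate 2 and 368 with library totals. The cause was not tested. A replicate left alone in its tissue was assumed to vary like the other groups.

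With the replicate block 2385 genes were higher in mesoderm and 3096 in neuronal nuclei. Libraries with the same number showed no large shared deviation (r of -0.141 to 0.163 over the 6 pairs of groups). Whether they share a collection cannot be told from this. With a call rule of at least 2-fold, the median span of coding genes was 6743 bases for mesoderm and 2456 bases for neuronal nuclei. Letters of promoters were not examined, since no sequence was used here. With 2 libraries per tissue, differences of low genes are the least certain, and a gene at 0 carries only a lower bound.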
